A study of Mus musculus with 93 samples.

Results

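The members described here are the genes of 8 proteins of the tumor necrosis factor (TNF) system: the ligands Tnf, Ltb, Tnfsf13b and Tnfsf13, and the receptors Tnfrsf1a, Tnfrsf1b, Tnfrsf13b and Tnfrsf13c. They were chosen by gene symbol, and 7 of the 8 could be read, out of 18193 genes that had a probe set annotated to a single symbol. Each was read by its brightest probe set, that of the highest mean over the 93 arrays together, and its other probe sets are given beside it. The only probe set that lists Tnfsf13 was also annotated to Tnfsfm13 and Tnfsf12, so no value was assigned to Tnfsf13. Levels are log2 values made with RMA, 1 array per blood sample, and a difference of levels is given on the same log2 scale.

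Total white blood cells, called peripheral blood cells (PBCs) in the study, came from the cheek vein of female mice of the FVB/NJ background. The tumor-bearing mice were MMTV/c-MYC transgenics with advanced mammary tumors, and the controls were wild type, tumor-free females matched for age and parity. In the transgenics the hormone-responsive MMTV promoter drives c-MYC, or a more stable point mutant of it, and the mice were bred continuously, because pregnancy and lactation raise the transgene. The design text gives an average age of 431 days at the last blood draw, and the sources used here do not tie a transgene to an array. The study divided the samples at random into a training and a validation cohort, and within each the tumor arrays fall into 2 sets by the number in their label. The late-numbered tumor set held 52 arrays (27 training arrays numbered 6 to 32 and 25 validation arrays numbered 9 to 33), the early-numbered tumor set held 13 (5 training arrays numbered 1 to 5 and 8 validation arrays numbered 1 to 8), and the control set held 28 (14 in each cohort). The words late and early refer to label numbers alone and not to the age or stage of a tumor.

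The array sets also differed in their technical controls. The bacterial spike-in dap ran from 6.57 to 10.8 on late-numbered tumor arrays, from 2.11 to 3.83 on early-numbered tumor arrays and from 1.74 to 3.55 on control arrays. The actin 5′ minus 3′ control difference, which is more negative where the 5′ part of the transcript gives less signal, had medians of −0.5, −1.4 and −0.6, and its range on early-numbered arrays (−2.0 to −1.2) lay wholly below that on control arrays (−0.9 to −0.5). A difference between these sets and a difference in how their RNA was handled therefore cannot be told apart. The labels name no animals, so p-values measure the spread between arrays. The 4 arrays least like the others by correlation were validation tumor arrays 19 and 9 (late-numbered), validation tumor array 2 and training tumor array 4 (early-numbered), and the values without them are given where they move a call. Of the marker lists not given beside a member, the platelet list had medians of 12.67, 12.26 and 12.47 on late-numbered tumor, early-numbered tumor and control arrays, and the mammary epithelium list medians of 3.85, 3.98 and 3.81, with 6 of its 14 genes higher than control in the late-numbered set and 4 higher and 1 lower in the early-numbered set. Other lists moved with a set: 5 of 8 dendritic cell genes were higher and 2 lower (median difference 0.41) and 6 of 10 plasma cell genes were lower and 1 higher (−0.71) in the late-numbered set, while 7 of 11 NK cell genes were lower and 0 higher (−0.53) and 5 of 10 red cell precursor genes higher and 0 lower (0.49) in the early-numbered set. Their part in the members' differences was not tested. Over all genes 25.6% were called higher and 20.5% lower than control in the late-numbered set, and 34.3% and 29% in the early-numbered set. Each list count in this report is to be read beside these shares, and no list was tested against them.

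TNF, made mainly by activated macrophages and monocytes, signals through a death-domain receptor found on most cells (the product of Tnfrsf1a) and through a second receptor enriched on leukocytes (Tnfrsf1b). Lymphotoxin beta (Ltb) holds lymphotoxin alpha at the surface of lymphocytes and signals through Ltbr to the alternative NF-kappaB pathway, which runs through the kinase Map3k14 and the subunits Relb and Nfkb2. BAFF (Tnfsf13b) comes largely from myeloid cells and keeps mature B cells alive through the BAFF receptor (Tnfrsf13c), while TACI (Tnfrsf13b) binds both BAFF and its relative APRIL (Tnfsf13).

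By brightest probe set, the TNF receptors and the ligands that could be read were higher in late-numbered tumor than in control PBCs. The BAFF receptors were lower. The other probe sets of Tnfsf13b did not show its rise, and the rise of Tnf lost its call under several settings given below. Of the 7 members, 5 rose (Tnf, Ltb, Tnfsf13b, Tnfrsf1a and Tnfrsf1b), against a background of 25.6% of all genes called higher, and 2 fell (Tnfrsf13b and Tnfrsf13c), against 20.5% called lower. In early-numbered tumor PBCs 1 member rose (Tnfrsf1b, background 34.3%) and 2 fell (Ltb and Tnfrsf13b, background 29%). Set directly against each other, late-numbered arrays were higher than early-numbered arrays for 4 members (Tnf, Ltb, Tnfsf13b and Tnfrsf1a, background 31.5%) and lower for 1 (Tnfrsf13c, background 38.3%). The median difference over the 7 members was 0.47 for late-numbered tumor minus control, where all genes had a median of 0.04, and −0.16 for early-numbered tumor minus control, where all genes had a median of 0.07. Both comparisons use the same control arrays. With all 65 tumor arrays in a single group 3 members rose (Tnfrsf1a, Tnfrsf1b and Tnfsf13b, background 22.7%) and 2 fell (Tnfrsf13b and Tnfrsf13c, background 19.6%), and Ltb, which the sets moved in opposite directions, had a pooled difference of 0.30 ± 0.141 (SE, limma adjusted p = 0.0762). As blood is a mixture, fewer cells of a type and less RNA per cell cannot be told apart in any of these values. The study also counted leukocytes in blood taken after euthanization, and the paper reports similar profiles in tumor-bearing and matched control mice. The paper reads this as making cell proportions an unlikely source of the expression differences. Those counts were not compared with the arrays here.

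**Figure D1:**
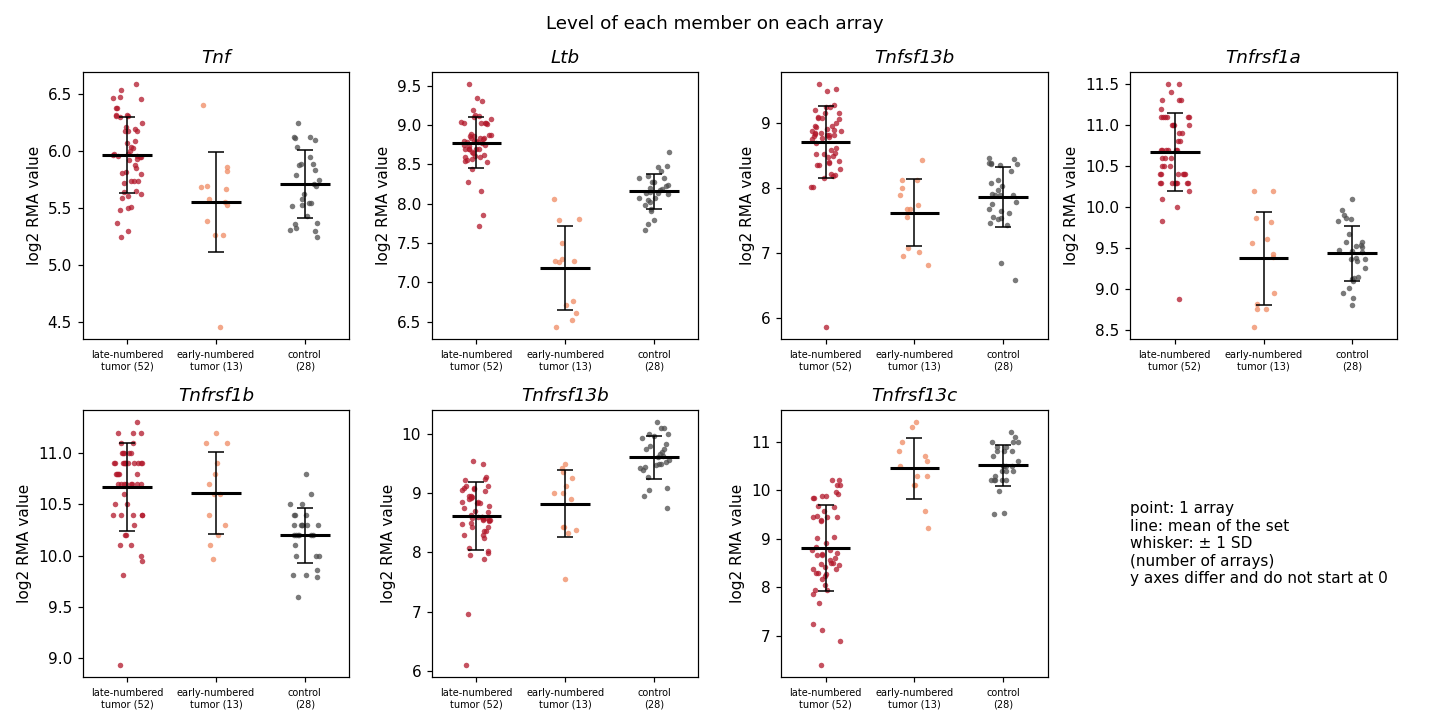
Log2 RMA value (y axis, different range in each panel) of 7 members on each array, by array set (x axis, number of arrays in brackets), with the mean as a line and ± 1 SD as whiskers. Ltb sits highest in late-numbered tumor arrays and lowest in early-numbered ones, while Tnfrsf13c is low in the late-numbered set alone.

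Among the ligands, Ltb separated the 3 array sets most clearly by its level. Ltb (chr17:35194507-35196305, GRCm38) ran from 7.72 to 9.52 with a median of 8.79 on the 52 late-numbered tumor arrays, from 6.43 to 8.06 with a median of 7.27 on the 13 early-numbered tumor arrays, and from 7.67 to 8.65 with a median of 8.16 on the 28 control arrays. Of the late-numbered arrays 38 lay above the highest control, and of the early-numbered arrays 10 lay below the lowest control and 0 above the control mean. The difference to control was 0.62 ± 0.0796 (SE, 1.54-fold, limma adjusted p = 1.07e-10) for the late-numbered set and −0.98 ± 0.114 (1.97-fold lower, adjusted p = 5.39e-12) for the early-numbered set. Late-numbered minus early-numbered arrays gave 1.6 ± 0.106 (3.03-fold, adjusted p = 3.03e-25). Each direction was called within each cohort: 0.64 in training and 0.60 in validation arrays for late-numbered tumor minus control, and −1.10 and −0.91 for early-numbered tumor minus control.

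Tnf, the gene next to Ltb on chromosome 17 (chr17:35199367-35202007), moved much less. It ran from 5.25 to 6.59 with a median of 5.96 on late-numbered arrays, from 4.46 to 6.41 with a median of 5.58 on early-numbered arrays, and from 5.25 to 6.25 with a median of 5.71 on control arrays. The 3 ranges overlapped, and 12 of 52 late-numbered arrays exceeded every control. The difference was 0.26 ± 0.0817 (SE, 1.20-fold, limma adjusted p = 0.00548) for late-numbered tumor minus control and −0.16 ± 0.117 (adjusted p = 0.234) for early-numbered tumor minus control. Late-numbered minus early-numbered arrays gave 0.42 ± 0.108 (adjusted p = 0.000438), a call that was lost in training arrays alone (0.23, adjusted p = 0.257), under repeated quantile normalization (0.17, adjusted p = 0.195), with the myeloid marker lists as covariates (0.19, adjusted p = 0.176) and with 3 components of the control probe sets (0.34, adjusted p = 0.515). The late-numbered difference to control missed the threshold within the validation arrays alone (0.22, limma adjusted p = 0.167) and against the validation controls alone (0.20, adjusted p = 0.121). It also missed it with the B cell list as a covariate (0.16, adjusted p = 0.209) and with the 3 components (0.15, adjusted p = 0.784). Without the 4 least alike arrays the early-numbered difference to control was −0.27 and passed the threshold (adjusted p = 0.0405). The promoters of these neighbors are printed because Ltb moved strongly between the sets and Tnf did not. They are taken from RefSeq (GRCm38.p6), 5′ to 3′ on the strand of the gene, from upstream of the start site into the transcript, and capitals mark a match to any of 4 motifs chosen with the results known: the NF-kappaB decamer consensus, the interferon-regulatory-factor pair GAAANNGAAA, the octamer ATGCAAAT of B cell promoters and the AP-1 heptamer TGANTCA, each searched on both strands. No matches of different motifs overlapped in the members' windows.
Ltb promoter, chr17:35194257-35194556, plus strand: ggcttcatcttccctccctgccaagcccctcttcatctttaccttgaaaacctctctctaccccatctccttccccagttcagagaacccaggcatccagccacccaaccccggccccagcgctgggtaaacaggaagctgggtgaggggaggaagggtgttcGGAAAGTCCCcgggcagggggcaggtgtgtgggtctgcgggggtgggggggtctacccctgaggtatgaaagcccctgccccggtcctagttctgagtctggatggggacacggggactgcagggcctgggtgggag
Tnf promoter, chr17:35201958-35202257, minus strand: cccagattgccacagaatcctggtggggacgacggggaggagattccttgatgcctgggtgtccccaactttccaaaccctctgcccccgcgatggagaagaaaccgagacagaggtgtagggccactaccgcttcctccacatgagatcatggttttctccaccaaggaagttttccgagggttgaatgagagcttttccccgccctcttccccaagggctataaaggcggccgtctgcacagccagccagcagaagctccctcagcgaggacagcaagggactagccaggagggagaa
The Ltb window held 1 NF-kappaB decamer, on the opposite strand, starting 87 bases before the start site; 8.46% of 32851 mouse promoter windows of that length held at least 1. The Tnf window held none of the 4 motifs, which says only that these letters are not in this window.

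Tnfsf13b, the gene of BAFF, rose in the late-numbered set. Its brightest probe set (1460255_at) ran from 5.86 to 9.6 with a median of 8.82 on late-numbered tumor arrays, from 6.82 to 8.43 with a median of 7.68 on early-numbered tumor arrays, and from 6.59 to 8.46 with a median of 7.89 on control arrays. Of 52 late-numbered arrays, 39 exceeded the highest control, and the lowest, validation tumor array 19, stood below every control. The difference was 0.85 ± 0.121 (SE, 1.80-fold, limma adjusted p = 4.09e-09) for late-numbered tumor minus control, −0.24 ± 0.174 (adjusted p = 0.22) for early-numbered tumor minus control, and 1.09 ± 0.161 (2.13-fold, adjusted p = 6.54e-09) for late-numbered minus early-numbered tumor. The other probe sets of the gene did not show this pattern. The second (1445251_at), with medians of 4.54, 5.28 and 4.23 on late-numbered, early-numbered and control arrays, gave 0.23 ± 0.170 (adjusted p = 0.295) for late-numbered tumor minus control but 1.11 ± 0.244 (adjusted p = 5.93e-05) for early-numbered tumor minus control, a difference of 1.55 in validation and of 0.46 in training arrays, where it was not called (adjusted p = 0.26). The third (1458047_at) had medians of 2.92, 2.73 and 2.81 and passed in no comparison. The stretches of the transcript that these probe sets read were not compared here.

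Promoter windows were read at 2 start sites of the gene, and the second window is printed because it held a match to the paired site of interferon regulatory factors.
Tnfsf13b promoter, chr8:10006383-10006682, plus strand: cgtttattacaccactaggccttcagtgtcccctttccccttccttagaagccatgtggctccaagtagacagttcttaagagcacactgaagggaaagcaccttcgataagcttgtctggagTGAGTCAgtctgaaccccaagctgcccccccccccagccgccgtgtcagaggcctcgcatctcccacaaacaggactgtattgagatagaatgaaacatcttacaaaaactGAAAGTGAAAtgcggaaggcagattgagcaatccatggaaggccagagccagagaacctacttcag
GAAANNGAAA stood 16 bases before that start site, and 3.44% of the 32851 windows held it; TGANTCA, in 7.81% of them, lay further upstream. Among the other members Tnfrsf1b held GAAANNGAAA in its window, 10 bases before the start site on the opposite strand, and Tnfsf13 held TGANTCA. The windows of Tnfrsf1a, Tnfrsf13b and Tnfrsf13c held none of the 4 motifs. All 8 members had a window.

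The probe set shared by Tnfsf13, Tnfsf12 and Tnfsfm13 (1418345_at) ran from 6.51 to 10.4 with a median of 9.72 on late-numbered tumor arrays, from 6.10 to 9.18 with a median of 8.38 on early-numbered tumor arrays, and from 7.72 to 9.93 with a median of 8.93 on control arrays. It differed from control by 0.74 ± 0.149 (SE, limma adjusted p = 1.52e-05) in the late-numbered set and by −0.75 ± 0.214 (adjusted p = 0.00159) in the early-numbered set. Which of the 3 transcripts gave the signal could not be read from this probe set.

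The receptor gene Tnfrsf1a (chr6:125349723-125362483) rose most of all members in the late-numbered set. It ran from 8.88 to 11.5 with a median of 10.7 on late-numbered tumor arrays, from 8.54 to 10.2 with a median of 9.43 on early-numbered tumor arrays, and from 8.81 to 10.1 with a median of 9.46 on control arrays. Of 52 late-numbered arrays, 48 lay above the highest control and 1, validation tumor array 19, below the control mean. The late-numbered minus control difference was 1.23 ± 0.105 (SE, 2.35-fold, limma adjusted p = 2.06e-18), with 1.29 in training and 1.17 in validation arrays. The early-numbered minus control difference was −0.07, with a 95% interval of −0.36 to 0.23, and late-numbered minus early-numbered arrays gave 1.30 ± 0.139 (adjusted p = 5.77e-14).

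Tnfrsf1b (chr4:145212368-145246870) was the member that rose in both tumor sets by its brightest probe set (1418099_at). It ran from 8.93 to 11.3 with a median of 10.8 on late-numbered tumor arrays, from 9.97 to 11.2 with a median of 10.6 on early-numbered tumor arrays, and from 9.6 to 10.8 with a median of 10.2 on control arrays. The ranges overlapped widely, with 22 of 52 late-numbered and 4 of 13 early-numbered arrays above the highest control. The difference to control was 0.47 ± 0.0883 (SE, limma adjusted p = 3.68e-06) in the late-numbered set and 0.41 ± 0.127 (adjusted p = 0.00407) in the early-numbered set, and the sets differed from each other by 0.07, with a 95% interval of −0.17 to 0.30. Within the training arrays, which include 5 early-numbered ones, the early-numbered difference was 0.42 and was not called (adjusted p = 0.113). The second probe set of the gene (1448951_at) went the opposite way in the early-numbered set. It had medians of 6.22 on late-numbered, 5.25 on early-numbered and 5.66 on control arrays, and it differed from control by 0.61 ± 0.104 (adjusted p = 3.61e-07) in the late-numbered and by −0.68 ± 0.149 (adjusted p = 5.26e-05) in the early-numbered set. The direction of Tnfrsf1b in early-numbered tumor PBCs therefore depended on the probe set, and its rise in late-numbered PBCs did not.

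**Figure D2:**
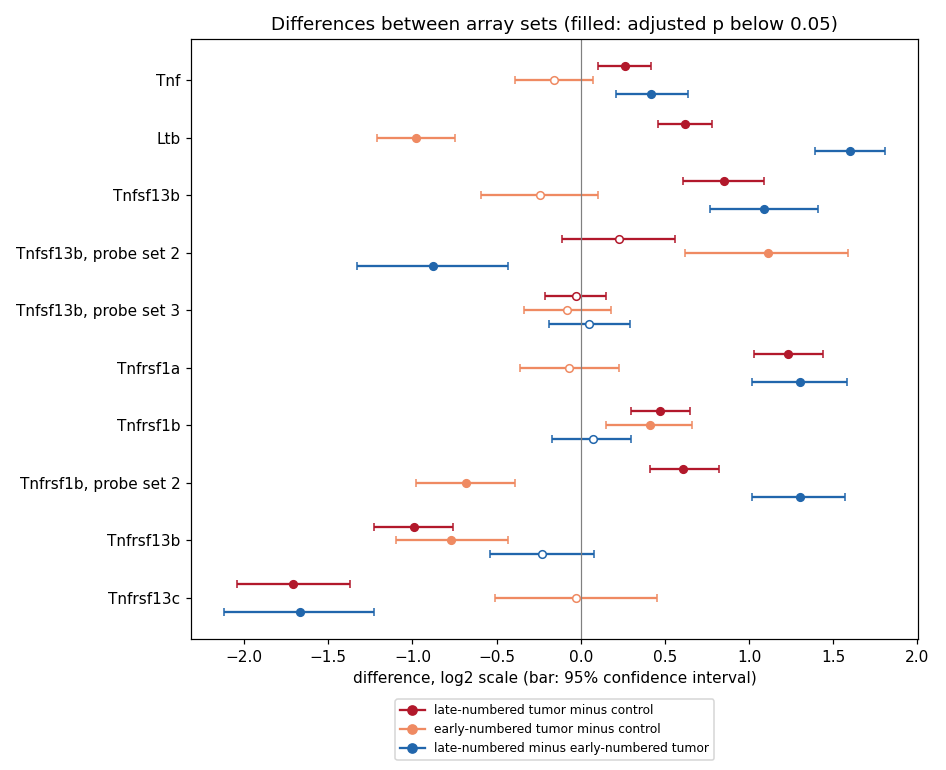
Log2 difference between array sets (x axis, with 95% confidence intervals) for the brightest and the other probe sets of each member (y axis), filled where the limma adjusted p was below 0.05. Ltb differs from control in opposite directions in the tumor sets, Tnfrsf13c differs in the late-numbered set alone, and the second probe sets of Tnfrsf1b and Tnfsf13b depart from the brightest ones in the early-numbered set.

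The BAFF receptor gene Tnfrsf13c (chr15:82221742-82224380) fell in the late-numbered set and stood at the control level in the early-numbered set. It ran from 6.39 to 10.2 with a median of 8.7 on late-numbered tumor arrays, from 9.22 to 11.4 with a median of 10.5 on early-numbered tumor arrays, and from 9.5 to 11.2 with a median of 10.5 on control arrays. All 52 late-numbered arrays were below the control mean and 39 below the lowest control. The late-numbered minus control difference was −1.71 ± 0.169 (SE, 3.26-fold lower, limma adjusted p = 3.62e-15), with −1.44 in training and −1.98 in validation arrays. The early-numbered minus control difference was −0.03, with a 95% interval of −0.51 to 0.45, and late-numbered minus early-numbered arrays gave −1.67 ± 0.225 (3.19-fold lower, adjusted p = 3.04e-10). Its promoter is printed as that of the member that fell most, and all of it is in lower case, as none of the 4 motifs matched.
Tnfrsf13c promoter, chr15:82224331-82224630, minus strand: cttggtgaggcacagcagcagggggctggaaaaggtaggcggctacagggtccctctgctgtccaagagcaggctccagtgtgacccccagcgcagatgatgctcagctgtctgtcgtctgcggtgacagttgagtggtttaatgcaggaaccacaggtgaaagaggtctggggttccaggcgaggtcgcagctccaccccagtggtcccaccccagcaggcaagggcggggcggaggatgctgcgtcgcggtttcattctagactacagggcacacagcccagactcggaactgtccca

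The TACI gene Tnfrsf13b (chr11:61126283-61153170) fell in both tumor sets. It ran from 6.09 to 9.54 with a median of 8.62 on late-numbered tumor arrays, from 7.55 to 9.5 with a median of 9.0 on early-numbered tumor arrays, and from 8.75 to 10.2 with a median of 9.62 on control arrays. All 52 late-numbered and all 13 early-numbered arrays were below the control mean, and 29 and 5 of them were below the lowest control. The difference to control was −0.99 ± 0.119 (SE, 1.99-fold lower, limma adjusted p = 7.75e-12) in the late-numbered set and −0.77 ± 0.170 (1.70-fold lower, adjusted p = 6.90e-05) in the early-numbered set. The sets differed from each other by −0.23, with a 95% interval of −0.54 to 0.08. Both BAFF-binding receptor genes were thus lower in late-numbered tumor PBCs, and TACI alone of them was called lower in early-numbered tumor PBCs.

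The B cell markers moved with these receptors. Of 19 measured genes of the B cell list, 17 were lower than control in the late-numbered set and 14 in the early-numbered set, with 0 higher in either and median differences of −1.06 and −1.13. The mean level of the list ran from 6.15 to 9.65 with a median of 8.44 on late-numbered tumor arrays, from 7.27 to 9.25 with a median of 8.29 on early-numbered tumor arrays, and from 8.37 to 10.0 with a median of 9.37 on control arrays. The early-numbered set thus had B cell markers below the control level and Tnfrsf13c at it. Within each array set Tnfrsf13c followed the list closely, with r = 0.977 and rho = 0.969 over late-numbered arrays (n = 52), r = 0.970 and rho = 0.950 over early-numbered arrays (n = 13), and r = 0.910 and rho = 0.911 over control arrays (n = 28). Each r had a permutation p of 1e-05, the smallest that 100000 resamples can give (adjusted over 36 relations 3.6e-05), and r was at least 0.879 without the 2 arrays farthest from the median of the list. Within the cohorts r was 0.981 (training) and 0.972 (validation) over late-numbered arrays and 0.928 and 0.890 over control arrays, and it was 0.969 over the 8 early-numbered validation arrays; the 5 early-numbered training arrays were too few for a value in this and the other relations. The sets lay on separate lines, however. With the list mean as a covariate, Tnfrsf13c differed from control by −0.72 (limma adjusted p = 1.05e-19) on late-numbered arrays and by 1.03 (adjusted p = 2.4e-21) on early-numbered arrays.

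Tnfrsf13b followed the list less tightly, with r = 0.793 over late-numbered, 0.714 over early-numbered and 0.838 over control arrays (permutation p of 1e-05, 0.00637 and 1e-05, adjusted 3.6e-05, 0.0115 and 3.6e-05) and rho = 0.736, 0.718 and 0.808. Without the 2 farthest arrays r was 0.704, 0.770 and 0.794, and within the cohorts it was 0.700 (training) and 0.849 (validation) over late-numbered arrays, 0.909 over early-numbered validation arrays, and 0.864 and 0.817 over control arrays. With the list as a covariate its differences to control were −0.44 (limma adjusted p = 3.18e-05) in the late-numbered and −0.17 (adjusted p = 0.229, no longer called) in the early-numbered set. Genes of the B cell list itself did not all behave alike between the tumor sets: 6 of 19 were higher and 4 lower on late-numbered than on early-numbered arrays. The transcription factor genes Ebf1 and Pou2af1, chosen for mention after their values were seen, were like Tnfrsf13c lower on late-numbered than on early-numbered arrays (differences of −1.73 and −0.80). Ebf1 differed from control by −1.34 in the late-numbered set and by 0.39 (adjusted p = 0.152) in the early-numbered set, and Pou2af1 by −1.06 and −0.25 (adjusted p = 0.153). Cd79a and Cd79b, the signalling chains of the B cell receptor, differed from control by −0.69 and −0.92 in the late-numbered set and by −1.65 and −1.65 in the early-numbered set. The part of the technical differences between the sets in these departures was not tested. Tnfrsf17, the third receptor of BAFF and APRIL and mostly a plasma cell gene, was also named after its value was seen: it differed from control by −0.71 (adjusted p = 0.000495) in the late-numbered and by −0.76 (adjusted p = 0.0074) in the early-numbered set.

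**Figure D3:**
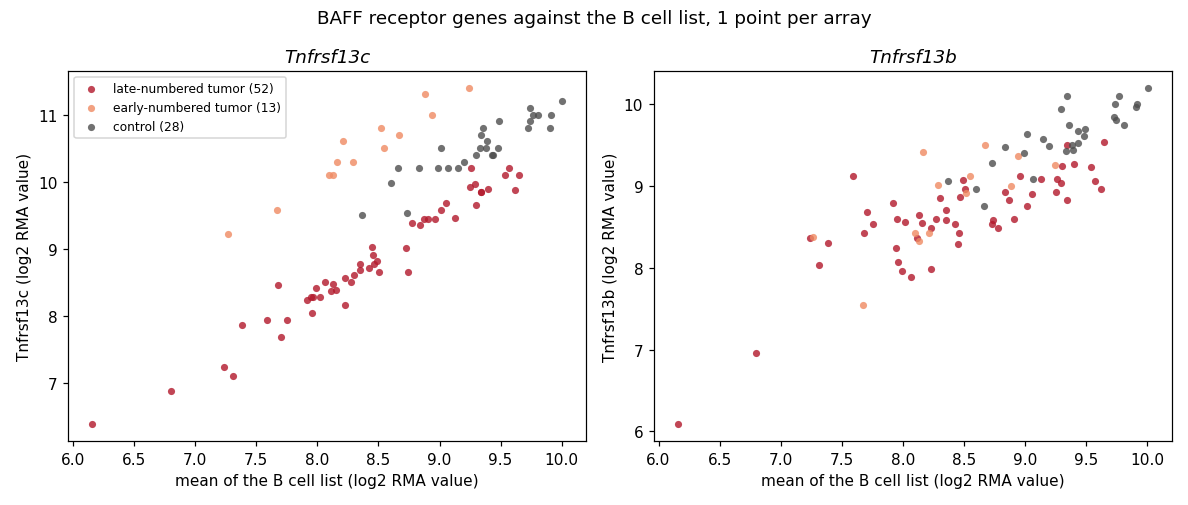
Log2 level of Tnfrsf13c and Tnfrsf13b (y axes) against the mean log2 level of 19 B cell genes (x axes), 1 point per array, colored by array set. For Tnfrsf13c the sets form separate parallel bands, early-numbered tumor arrays above and late-numbered tumor arrays below the controls, while for Tnfrsf13b they largely overlap.

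Ltb, which B and T lymphocytes express, did not follow their markers in this way. Its r with the B cell list was 0.0532 over late-numbered, −0.164 over early-numbered and 0.279 over control arrays (adjusted permutation p of 0.794, 0.687 and 0.193), and with the T cell list 0.0492, 0.0535 and 0.0332 (0.794, 0.893 and 0.893). The T cell list was lower in both sets, with 10 of 18 measured genes lower and 1 higher in the late-numbered set and 15 lower and 0 higher in the early-numbered set. With the B cell list as a covariate the differences of Ltb to control were 0.64 (late-numbered) and −0.96 (early-numbered), close to those without it.

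The TNF receptor genes and Tnfsf13b were set beside myeloid markers. In the late-numbered set 15 of 18 measured neutrophil genes and 10 of 16 measured monocyte genes were higher than control and 0 of either were lower. In the early-numbered set 1 neutrophil gene was higher and 2 were lower, and 2 monocyte genes were higher and 5 lower. The mean level of the neutrophil list had medians of 9.81 on late-numbered tumor, 9.01 on early-numbered tumor and 9.09 on control arrays (ranges 8.82 to 11.29, 7.82 to 10.61 and 8.02 to 10.01), and that of the monocyte list 10.56, 9.94 and 10.1 (ranges 8.31 to 11.07, 9.11 to 10.29 and 9.34 to 10.48). Tnfrsf1a followed the neutrophil list in each set, with r = 0.741 and rho = 0.814 over late-numbered arrays, r = 0.870 and rho = 0.901 over early-numbered arrays, and r = 0.696 and rho = 0.600 over control arrays (permutation p of 1e-05, 0.00016 and 4e-05, adjusted 3.6e-05, 0.000384 and 0.00012). Without the 2 farthest arrays r was 0.777, 0.977 and 0.596, and within the cohorts it was 0.752 and 0.767 over late-numbered arrays, 0.769 over early-numbered validation arrays, and 0.746 and 0.676 over control arrays (training first). With the monocyte list Tnfrsf1a had r = 0.726, 0.330 and 0.765 over late-numbered, early-numbered and control arrays (adjusted permutation p of 3.6e-05, 0.331 and 3.6e-05). Without the 2 farthest arrays that r was 0.541, 0.651 and 0.713. Tnfsf13b followed the neutrophil list most closely in the early-numbered set (r = 0.915, rho = 0.923, adjusted permutation p = 3.6e-05). It did so less over late-numbered arrays (r = 0.318, rho = 0.384, adjusted p = 0.0302), where r was 0.311 in training and 0.377 in validation arrays. Over control arrays r was 0.668 (rho = 0.613, adjusted permutation p = 0.000222). Without the 2 farthest arrays r was 0.862 over early-numbered, 0.403 over late-numbered and 0.552 over control arrays. Over early-numbered validation arrays r was 0.971. Its r with the monocyte list over late-numbered arrays was 0.656 and became 0.147 without the 2 arrays farthest from the median of the list, so the late-numbered relation rests on those arrays. Within the cohorts it was 0.170 in training and 0.822 in validation late-numbered arrays. Over control arrays r of Tnfsf13b with the monocyte list was 0.723 (rho = 0.649, adjusted permutation p = 9.82e-05) and 0.525 without the 2 farthest. Over early-numbered arrays it was −0.0379 (adjusted permutation p = 0.906). Tnfrsf1b followed the monocyte list in each set, with r = 0.646, 0.646 and 0.883 and rho = 0.801, 0.837 and 0.856 over late-numbered, early-numbered and control arrays (adjusted permutation p of 0.000257, 0.0233 and 3.6e-05), and r without the 2 farthest arrays was 0.692, 0.889 and 0.877. Within the cohorts it was 0.747 and 0.789 over late-numbered arrays, 0.478 over early-numbered validation arrays, and 0.914 and 0.874 over control arrays. With the neutrophil list Tnfrsf1b had r = 0.343, 0.439 and 0.649 over late-numbered, early-numbered and control arrays (adjusted permutation p of 0.0219, 0.18 and 0.000607). Tnf itself had r = 0.211, 0.458 and 0.455 with the monocyte list over late-numbered, early-numbered and control arrays (rho = 0.0275, 0.171 and 0.366, adjusted permutation p of r 0.18, 0.168 and 0.0233), and without the 2 farthest arrays r was −0.104, −0.13 and 0.315. With the neutrophil list Tnf had r = 0.423, −0.395 and 0.612 (rho = 0.410, −0.055 and 0.634, adjusted p 0.004, 0.227 and 0.000953), so that the sign over early-numbered arrays was the opposite of the others, and without the 2 farthest arrays r was 0.344, −0.0929 and 0.631. Within the cohorts its r with the neutrophil list was 0.412 and 0.443 over late-numbered arrays, −0.385 over early-numbered validation arrays, and 0.843 and 0.371 over control arrays (training first).

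With the monocyte and neutrophil lists as covariates the late-numbered differences of the 5 members that rose were smaller. Tnfrsf1a kept 0.60 (limma adjusted p = 1.16e-13) and Tnfsf13b 0.29 (adjusted p = 0.0351), while Tnf (0.08, adjusted p = 0.559) and Tnfrsf1b (0.06, adjusted p = 0.553) were no longer called. Ltb, at 0.49 (adjusted p = 1.1e-05), remained called. Of the BAFF-binding receptors, Tnfrsf13c was at −1.42 (adjusted p = 2.8e-13) and Tnfrsf13b, with a larger difference than before, at −1.19 (adjusted p = 4.57e-17). The early-numbered calls remained under the same covariates. Tnfrsf1b, at 0.52 (limma adjusted p = 6.94e-07), had a larger early-numbered difference than without them, while Ltb was at −0.95 and Tnfrsf13b at −0.65.

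**Figure D4:**
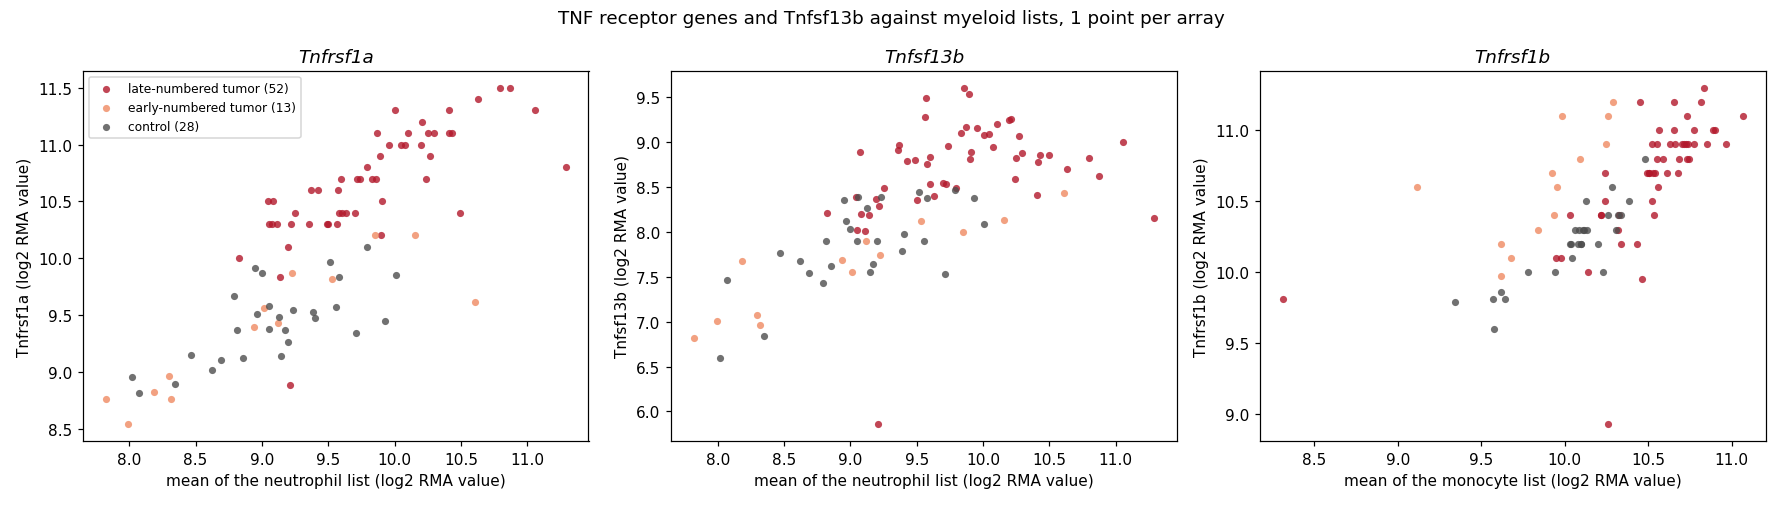
Log2 level of Tnfrsf1a and Tnfsf13b against the mean log2 level of the neutrophil list, and of Tnfrsf1b against that of the monocyte list, 1 point per array, colored by array set. For Tnfrsf1a, 48 of 52 late-numbered tumor arrays lie above the highest control, and 1 late-numbered array with a Tnfsf13b level of 5.86 stands far below the rest.

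After array set and cohort were taken out, the members fell into groups by how their levels varied over the 93 arrays, given here as a description. The BAFF-binding receptors went together (Tnfrsf13b with Tnfrsf13c, r = 0.735), as did Tnfrsf1a with Tnfsf13b (r = 0.682) and with Tnfrsf1b (r = 0.586). Tnfsf13b and its receptor gene Tnfrsf13c had r = −0.0508, and Tnf and its neighbor Ltb r = 0.206. The genes most like each member by this measure were Cd79a, Gga2 and Spib for Tnfrsf13c (r of 0.955, 0.953 and 0.946), Lat2, Cd74 and H2-Aa for Tnfrsf13b (0.852, 0.840 and 0.839), Myd88, Apobr and Spi1 for Tnfrsf1a (0.951, 0.941 and 0.938), and Acer3, Mettl7a1 and Idh2 for Tnfrsf1b (0.798, 0.777 and 0.777). Those of Tnfsf13b were Slc15a3, Slc2a6 and Lhx1 (0.849, 0.840 and 0.836), those of Ltb were AI467606, Rgs14 and Ttc7 (0.746, 0.688 and 0.686), and those of Tnf were Tmem119, Myof and AI839979, with r of at most 0.532.

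The other genes of the pathway were read from lists put together with earlier results known. The shares of all genes beside these list counts, here and below, were 25.6% higher and 20.5% lower in the late-numbered set. In the early-numbered set they were 34.3% and 29%. Of 23 other TNF receptor superfamily genes measured, 9 were higher and 8 lower than control in the late-numbered set, and 4 higher and 7 lower in the early-numbered set. Ltbr, the receptor of lymphotoxin beta, had medians of 8.57 on late-numbered tumor, 6.87 on early-numbered tumor and 7.08 on control arrays and rose by 1.53 ± 0.147 (SE, limma adjusted p = 9.08e-16) in the late-numbered set, with −0.32 (adjusted p = 0.18) in the early-numbered set. Relt (0.91), the death receptor gene Fas (0.87) and Tnfrsf18, the gene of GITR (0.60), rose too in the late-numbered set, and Tnfrsf18 fell by 0.78 in the early-numbered set. The lymphocyte costimulatory receptors Cd40 and Cd27 fell in both sets, Cd40 by 0.64 in the late-numbered and by 1.53 in the early-numbered set, and Cd27 by 0.44 and by 1.58. Of 11 other ligand genes, 1 rose (Tnfsf14, the gene of LIGHT, another ligand of Ltbr, by 0.96 ± 0.111) and 1 fell (Tnfsf10, the gene of TRAIL, by 0.58) in the late-numbered set, and 1 rose (Eda, by 0.47) and 3 fell in the early-numbered set. Lta, which forms the lymphotoxin heterotrimer with Ltb and lies beside Tnf (chr17:35203165-35205578), had a difference of −0.24 (adjusted p = 0.0896) in the late-numbered set and fell by 1.21 ± 0.169 (adjusted p = 2.26e-09) in the early-numbered set. Tnfsf8, the gene of the CD30 ligand, fell by 0.83 in the early-numbered set, and Cd40lg, the ligand of Cd40, by 0.50. The 4 receptor genes that rose there were Tnfrsf9 (0.58), Tnfrsf22 (0.42), Edar (0.41) and Tnfrsf11b (0.32); these, Eda and Cd40lg were named after their values were seen.

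Over the list of receptor signalling genes, 9 of 27 rose and 5 fell in the late-numbered set, and 6 rose and 14 fell in the early-numbered set, with median differences of −0.04 and −0.36. Map3k14, the kinase that starts the alternative NF-kappaB pathway, had medians of 7.71 on late-numbered tumor, 5.61 on early-numbered tumor and 6.96 on control arrays, and it differed from control by 0.73 ± 0.0805 (SE, limma adjusted p = 3.44e-13) and −1.33 ± 0.116 (adjusted p = 1.03e-17). Rbck1 and Rnf31, subunits of the ligase that joins linear ubiquitin chains to the TNF receptor complex, also rose in the late-numbered and fell in the early-numbered set, with 0.47 and −1.11 for Rbck1 and 0.84 and −0.66 for Rnf31. The deubiquitinase gene Cyld, which takes such chains off, fell by 0.59 in the late-numbered set and had a difference of 0.11 (adjusted p = 0.129) in the early-numbered set.

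Of 22 measured genes that TNF induces through NF-kappaB, 12 rose and 2 fell in the late-numbered set and 4 rose and 7 fell in the early-numbered set, with median differences of 0.32 and 0.06. Among them the NF-kappaB subunit genes Relb and Nfkb2 differed from control by 0.59 and 0.86 in the late-numbered and by −0.70 and −0.31 in the early-numbered set, all called. Junb rose by 1.5 ± 0.137 (SE, limma adjusted p = 7.97e-17) in the late-numbered set, and its early-numbered difference was 0.25 (adjusted p = 0.273). The inhibitor genes Nfkbie and Nfkbia went apart, Nfkbie falling by 1.09 and by 1.23 and Nfkbia rising by 0.25 and by 0.64 in the late-numbered and early-numbered sets. In the list of ligand processing and Tnf mRNA control, 5 of 11 rose and 5 fell in the late-numbered set, and 3 rose and 5 fell in the early-numbered set. Rhbdf2, which brings the TNF-releasing protease to the cell surface, rose by 0.95 in the late-numbered and fell by 0.36 in the early-numbered set, Pcsk7 rose by 0.72 and fell by 0.45, and the protease gene Adam10 fell by 0.13 and rose by 0.85. Mapkapk2 rose by 0.42 and Elavl1 fell by 0.32 in the late-numbered set, and Furin, which cleaves the BAFF and APRIL precursors, rose by 0.51 in the early-numbered set. Medians on late-numbered, early-numbered and control arrays were 8.23, 7.33 and 7.72 for Mapkapk2 and 11.1, 10.9 and 11.5 for Elavl1. Those of Furin were 12.0, 12.4 and 11.85.

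**Figure D5:**
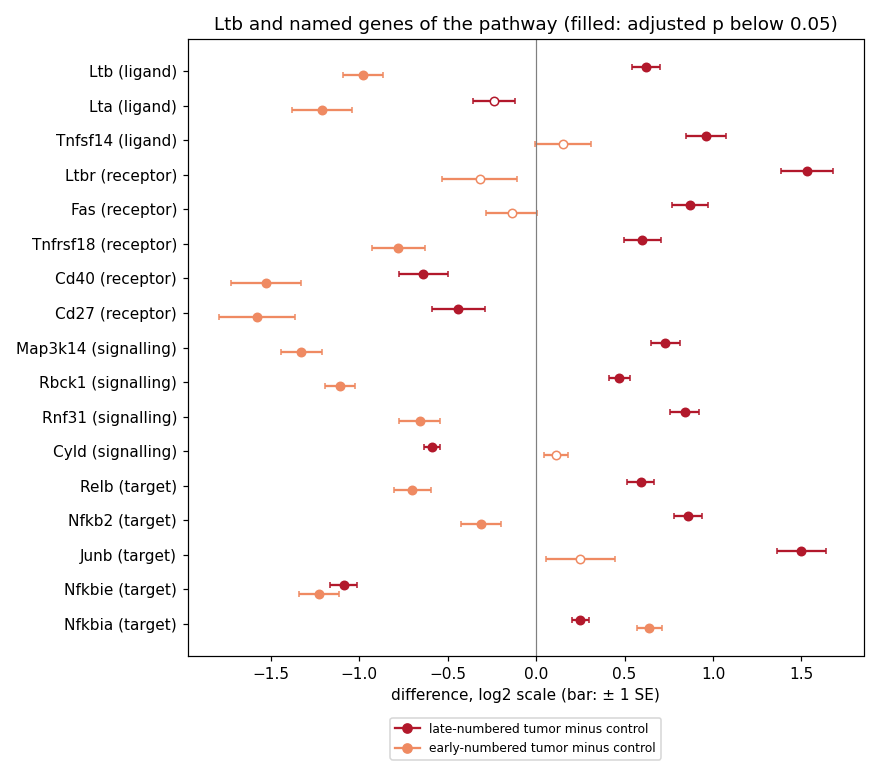
Log2 difference to control (x axis, bars ± 1 SE) in late-numbered and early-numbered tumor arrays for Ltb and named ligands, receptors, signalling genes and targets of the pathway (y axis), filled where the limma adjusted p was below 0.05. Ltb, Tnfrsf18, Map3k14, Rbck1, Rnf31, Relb and Nfkb2 lie to the right of 0 in the late-numbered set and to the left in the early-numbered set.

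The member calls held in each of the 93 fits that left out 1 array, and no member's interaction with cohort was called by limma (of 45037 probe sets, 0 were called for the late-numbered set and 145 for the early-numbered set, with 990 and 5618 at an unadjusted p under 0.05). Of the members' probe sets, the second of Tnfsf13b had an early-numbered difference larger in validation than in training arrays by 1.09 ± 0.487 (SE, p = 0.0271 by limma, adjusted p = 0.328). The member calls did not all hold once 3 principal components of the control probe sets, dap among them, entered the fit. Of the late-numbered differences only Ltb (0.93, limma adjusted p = 0.0158) and Tnfrsf13c (−2.72, adjusted p = 0.00178) were then called. Tnfsf13b became −0.51 (adjusted p = 0.465), and Tnfrsf1a, at 0.97 ± 0.386 (SE, 0.105 before), had an adjusted p of 0.0649. Tnfrsf1b (0.77 ± 0.341) and Tnfrsf13b (−1.24 ± 0.470) lost their calls although their differences were larger. As dap did not overlap between late-numbered and other arrays, a call lost in this fit cannot tell a technical difference from lost precision.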

How the data were processed

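Total RNA of white blood cell pellets, taken after red cell lysis and extracted at once or after storage, was amplified by the NuGEN Ovation method and hybridized to Affymetrix mouse arrays. The sources used here do not tie an extraction route to an array. The deposited values are log2 intensities that the authors computed by RMA, a method that corrects background, quantile-normalizes probes and summarizes each probe set; the RMA version, and whether the study's standardization on control probe sets is in these values, are not stated. Values hold 3 significant digits. Arrays give no counts, so the number of arrays limits the precision.

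All 45037 probe sets except the AFFX controls were tested with limma 3.58.1 in R 4.3.3 (lmFit, eBayes with intensity trend, two-sided, Benjamini-Hochberg, called at an adjusted p under 0.05) in a fit of 3 array sets with cohort as covariate, and again with all tumor arrays as 1 group. The fit was tested on simulated data. Genes were named from the 34945 probe sets with a single symbol. Correlations carry two-sided permutation p-values, adjusted over 36 relations. The rule for names took up to 4 genes per pathway list by the late-numbered comparison, up to 2 by the early-numbered one, and 3 nearest genes per member; exceptions are stated. The members, array sets and lists were chosen with earlier results of these data known. Alternatives changed the model, scaling, probe set, cohort, controls, covariates and arrays; leaving out the 4 least alike arrays, and centring before correlation, were added after seeing the data. The numbers in the labels did not pair samples across groups: over 28 same-numbered pairs the median correlation of deviations was −0.0128.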

Additional observations from a re-analysis of the deposited data

Results flagged for a closer look

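Among the 13 early-numbered tumor arrays, Tnf was 4.46 on validation tumor array 6, set apart from the next lowest of the 8 validation arrays, at 5.27. Each member was examined in the 5 training and the 8 validation early-numbered arrays, 14 groups in all, and this was the 1 array that stood apart; chance would set an array apart in about 1 of 20 such groups. Ltb was higher than control in late-numbered tumor arrays (0.62) and lower than control in early-numbered tumor arrays (−0.98), and the difference between the tumor sets, tested by limma, was 1.6.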

How the results depend on the processing

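Of 370 values of single members under settings other than leaving out 1 array, 322 had the direction and the side of the threshold given in the report, 19 lost their call, 5 gained one and 24 changed sign; of 1953 values from fits without 1 array, 3 changed sign and 0 changed their call. The cause was not tested for any change below. In late-numbered tumor minus control, 3 components of the control probe sets left 1 member called higher (Ltb 0.93) and 1 lower (Tnfrsf13c −2.72). Tnfsf13b changed sign to −0.51 in that fit and was not called. The monocyte and neutrophil lists as covariates left 3 higher. In early-numbered tumor minus control, training arrays alone left 0 called higher by limma (Tnfrsf1b 0.42, adjusted p = 0.113). Tnf, not called in either, changed sign to 0.07 there. The B cell list as a covariate gave 2 higher (Tnfrsf13c 1.03) and 1 lower. In late-numbered minus early-numbered tumor, 3 components left 1 called higher (Ltb 1.65), and Tnfsf13b changed sign to −0.65 and was not called. There, 2 were called lower under repeated quantile normalization, the actin covariate (Tnfrsf1b −0.61) and the B cell list, and 3 under the myeloid lists (Tnfrsf1b −0.46).

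Signs of early-numbered differences turned under several settings. Tnf became 0.07 under repeated quantile normalization. Tnfrsf1a became 0.01 in validation arrays alone, 0.01 after median centring, 0.03 after quantile normalization, 0.34 with 3 components and 0.08 with the myeloid lists, and ran from −0.14 to 0.01 over the fits without 1 array. Tnfrsf13c became 0.02 with array weights, 0.04 after centring, 0.01 after quantile normalization, 0.000911 with 3 components and 0.00106 with the myeloid lists, and ran from −0.11 to 0.09 without 1 array. Tnfsf13b became 0.14 with 3 components. By its next brightest probe set it became 1.11, which was called (late-numbered minus early-numbered −0.88). Tnfrsf1b, called at 0.41 by its brightest probe set, became −0.68 by its next brightest and was called there too. Centring made Tnfrsf1b −0.01 for late-numbered minus early-numbered tumor, and moved r of Tnfsf13b with the monocyte list over early-numbered arrays to 0.0541, against −0.0379 before.

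With the replicate number as a block, 4 members were called higher in late-numbered tumor minus control, where Tnf (0.36, adjusted p = 0.0696) lost its call, Tnfrsf13b became 0.002 for late-numbered minus early-numbered tumor, and Ltb became −0.17 and Tnfsf13b 0.35 (adjusted p = 0.0818) for all tumor arrays minus control. Same-numbered pairs had correlations of deviations from −0.468 to 0.237, and 0 of 28 samples correlated best with its own number.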
